A study of Mus musculus with 4 samples.

Results

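The DNA damage checkpoint genes Atm, Atr, Chek1, Chek2, H2afx, Mdc1, Topbp1, Brca1, Trp53 and Trp63 were examined in fetal oocytes of mice. These 10 genes were picked by symbol among the 55401 gene identifiers of the count files. The rule itself used no measured value, but the choice was made with earlier results of these data known. H2afx is the annotation's name for H2ax. RNA-seq was performed on oocytes of E18.5 fetuses (embryonic day counted from mating), with 2 libraries from mothers on a normal diet (ND) and 2 from mothers on a high-fat diet (HFD). The mothers were ICR females, an outbred stock, kept on either diet for 4 months and mated with ND males. Germ cells were sorted from fetal ovaries by flow cytometry for the surface antigen SSEA-1, and lysed, and their poly(A) RNA was copied and amplified by SMART-Seq2, which works from few cells. Each library pooled oocytes of several fetuses, and the sources used here do not say whether the pools came from separate litters, so the spread between libraries may be partly technical. The labels call the cells primordial germ cells, although female germ cells of this age are in meiotic prophase.

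In meiotic prophase I, programmed double-strand breaks are made and repaired while homologous chromosomes pair. The kinase ATM responds to double-strand breaks, whereas ATR, activated by TOPBP1, responds to single-stranded DNA and acts on unsynapsed chromosome axes together with BRCA1. Both kinases phosphorylate the histone variant H2AX, on which MDC1 docks, and they activate the effector kinases CHK1 and CHK2. In oocytes with unrepaired breaks, CHK2 signals to p53 and to p63 (Trp53 and Trp63), and p63 is known as the main trigger of oocyte elimination around birth.

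Of the 10 genes, 8 had an entry in the RefSeq promoter table (build GRCm38.p6). H2afx and Trp63 had none. The windows run from 250 bases before to 50 bases after the transcript start, 5′ to 3′ on the strand of the gene. Those of Atm, Atr, Chek2 and Topbp1 are printed because Chek2, Topbp1 and Atr reached the highest read counts among the members, and because Atm, Chek2 and Topbp1 start back to back with another coding gene whose counts are compared below. They lie at chr9:53536622-53536921 (minus strand), chr9:95857347-95857646 (plus), chr5:110839733-110840032 (plus) and chr9:103305077-103305376 (plus), in the same order. Capitals mark matches, on either strand, to the short motifs GGGCGG (SP1), CCAAT (NF-Y), CCGGAAG (ETS factors), GCGCATGC (NRF1) and GCGGGAA (E2F).
Atm: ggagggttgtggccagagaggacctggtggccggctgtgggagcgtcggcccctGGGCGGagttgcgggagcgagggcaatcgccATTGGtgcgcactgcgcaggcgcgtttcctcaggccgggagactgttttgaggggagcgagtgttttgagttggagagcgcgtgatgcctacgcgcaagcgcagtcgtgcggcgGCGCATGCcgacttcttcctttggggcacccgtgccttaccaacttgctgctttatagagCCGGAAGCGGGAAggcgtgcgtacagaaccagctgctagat
Atr: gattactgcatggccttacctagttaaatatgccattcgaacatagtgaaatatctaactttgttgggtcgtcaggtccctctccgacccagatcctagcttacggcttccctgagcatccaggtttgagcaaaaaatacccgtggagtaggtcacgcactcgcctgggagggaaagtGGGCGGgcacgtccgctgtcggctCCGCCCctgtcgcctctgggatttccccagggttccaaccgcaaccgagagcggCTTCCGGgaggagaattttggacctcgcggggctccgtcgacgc
Chek2: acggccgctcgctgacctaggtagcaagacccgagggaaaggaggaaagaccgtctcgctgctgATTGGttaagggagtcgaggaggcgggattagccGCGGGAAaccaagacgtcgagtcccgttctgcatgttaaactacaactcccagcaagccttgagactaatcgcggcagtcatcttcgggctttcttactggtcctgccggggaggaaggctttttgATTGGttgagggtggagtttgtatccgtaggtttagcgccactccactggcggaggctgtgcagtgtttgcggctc
Topbp1: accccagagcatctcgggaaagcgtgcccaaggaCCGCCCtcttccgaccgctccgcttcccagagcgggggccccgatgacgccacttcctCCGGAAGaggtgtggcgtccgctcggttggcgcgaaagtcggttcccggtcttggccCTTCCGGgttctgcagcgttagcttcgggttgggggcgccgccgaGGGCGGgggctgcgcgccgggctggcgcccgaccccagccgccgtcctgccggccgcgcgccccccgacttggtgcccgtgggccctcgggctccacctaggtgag
In the Atm window an ETS match and an E2F match share bases. The E2F letters were found in 4 of the 8 member promoters (Atm, Chek1, Chek2 and Mdc1), in 4.6% of all 32851 promoters of the table, and in 9.2% of the 14281 with at least 10 CpG dinucleotides. All 8 member promoters had at least 10 CpGs, against 43.5% of the table. The NF-Y letters occurred in 5 of 8 (37.4% of the table), the SP1 letters in 4 (35.7%), the ETS letters in 3 (8.86%) and the NRF1 letters in 1 (2.71%). A match is a description of the sequence and not a binding site.

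Library totals ranged from 5723605 to 8223255 counted reads, so that 3 counts, the upper limit that a count of 0 allows, corresponded to 0.365 to 0.524 CPM (reads per 1000000 counted). Intervals and limits of this kind cover counting error only, because the reads carry no molecular identifiers. Of 12 germ cell and oocyte markers, between 9 and 11 per library exceeded the background limit explained below, none was at 0, and their sum was 2080, 3873, 5246 and 4058 CPM in ND replicates 1 and 2 and HFD replicates 1 and 2. Markers of other cell types varied more. The 5 red blood cell markers, led by Hbb-bs and Hba-a1, summed to 1973 CPM in ND replicate 1 and to at most 4.54 CPM elsewhere, with 2 of the 5 at 0 in each of the other libraries. The 8 stromal markers, led by Col3a1 and Col1a1, ranged from 67.8 CPM in ND replicate 2 to 7699 CPM in HFD replicate 2. The 10 pregranulosa markers, led by Amhr2 and Rspo1, ranged from 19.1 CPM in HFD replicate 1 to 2086 CPM in HFD replicate 2, and the 5 endothelial markers, led by Kdr and Pecam1, from 18.8 CPM in ND replicate 1 to 698 CPM in HFD replicate 1. The 5 leukocyte markers, led by Ptprc and Csf1r, stayed between 10.2 and 32.8 CPM. Their part in the results on the checkpoint genes was not tested. In such bulk libraries, fewer cells of a type and less RNA per cell cannot be told apart.

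Olfactory receptor genes, which oocytes are not known to use, served as the measure of background. In each library, the limit was set at the 99th percentile of 1093 such genes in reads per kilobase of exon, and it ranged from 7.36 to 12.5. Above the limit were 4 of the 10 genes in ND replicate 1, 6 in ND replicate 2, 1 in HFD replicate 1 and 2 in HFD replicate 2. Among all coding genes tested the corresponding shares were 31.6%, 28.7%, 17.5% and 19.1%. No member exceeded the limit in all 4 libraries, Chek2 did so in 3, Chek1, H2afx, Mdc1 and Topbp1 in 2, Atr and Trp53 in 1, and Atm, Brca1 and Trp63 in none. For comparison, 4.66% of the 15806 coding genes tested passed in all 4 libraries and 47.5% passed in no library. Against the 95th percentile of raw reads, with no correction for exon length, 9 and 10 members passed in ND replicates 1 and 2 and 6 and 8 in HFD replicates 1 and 2. Long genes pass such a limit more easily, and exon length ranged from 1384 bases for H2afx to 23629 for Atr. The share of all coding genes was not computed for it. The plot of CPM by library shows that a few members stood far above the rest, each in 1 or 2 libraries.

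**Figure D1:**
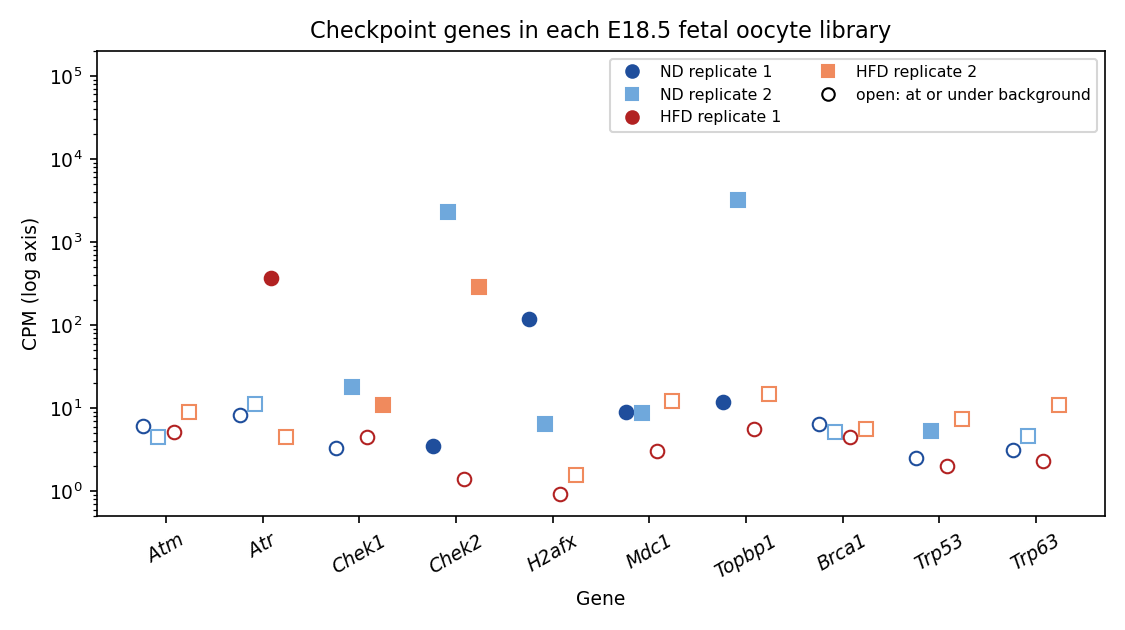
CPM (log axis) of the 10 checkpoint genes in each of the 4 libraries, with ND in blue, HFD in red and orange, circles for replicate 1, squares for replicate 2, and open symbols for values at or under the background limit. Topbp1 and Chek2 stand out in ND replicate 2 at 3212 and 2311 CPM, Atr in HFD replicate 1 at 368 CPM and H2afx in ND replicate 1 at 119 CPM, while the other members lie between 2.01 and 17.8 CPM.

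Atm (chromosome 9, 53439149 to 53536740) encodes the kinase at the head of the double-strand break response. Its counts were 50 and 35 in ND replicates 1 and 2, and 33 and 52 in their HFD counterparts, or 6.08, 4.48, 5.11 and 9.09 CPM. All of these lay at 0.376 to 0.57 times the background limit, and the diets overlapped in CPM. After TMM scaling they did not, with 5.97 and 4.75 in ND and 7.33 and 6.08 in HFD. The ND mean was 5.28 ± 1.13 CPM and the HFD mean 7.10 ± 2.81 (± SD over 2 libraries). The fitted log2 fold change of HFD over ND was 0.32 ± 0.45 (standard error here and below), at an adjusted p of 0.836 in edgeR's test, which is used throughout.

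Atr (chromosome 9, 95857597 to 95951781) encodes the kinase that responds to single-stranded DNA. ND libraries held 68 and 89 reads of it, HFD libraries 2377 and 26. HFD replicate 1 was thus the only library above the limit, at 13.7 times, and HFD replicate 2, at 0.0881 times, was the lowest of the 4. In CPM the values were 8.27, 11.4, 368 and 4.54, averaging 9.83 ± 2.21 under ND and 186 ± 257 under HFD. With that library left out, its log2 fold change went from 4.71 ± 2.47 (edgeR adjusted p = 0.443) to -1.85. Germ cell and oocyte markers and endothelial markers were also highest in HFD replicate 1, at sums of 5246 and 698 CPM. The part of either cell type in the Atr level was not tested. Atr has the longest exon union of the members, 23629 bases, and hence few reads per kilobase for its counts.

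Chek1 (chromosome 9, 36708482 to 36727065) encodes the effector kinase downstream of ATR. Its 27, 139, 29 and 62 counts in ND replicates 1 and 2 and HFD replicates 1 and 2 were 3.28, 17.8, 4.49 and 10.8 CPM. Both replicates 2 were above the limit, at 3.33 and 1.07 times, and both replicates 1 were below it, whatever the diet. Its log2 fold change of -0.69 ± 0.93 (edgeR adjusted p = 0.831) became 1.02 without ND replicate 2.

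Chek2 (chromosome 5, 110839979 to 110874145) encodes the effector kinase that signals to p53 and p63 in oocytes. In ND 29 and 18063 reads were counted, in HFD 9 and 1656, or 3.53, 2311, 1.39 and 289 CPM. ND replicate 2 was 669 times and HFD replicate 2 was 44.2 times the background limit, whereas the other ND library was at 1.14 times and the other HFD library at 0.407 times. Means were 1157 ± 1632 CPM under ND and 145 ± 204 under HFD. In each diet the SD was larger than the mean, and the ND SD was also larger than the distance between the diet means. A log2 fold change of -3.65 ± 3.39 was fitted (edgeR adjusted p = 0.713), and it ranged from -9.20 without HFD replicate 2 to 4.67 without ND replicate 2.

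H2afx (chromosome 9, 44334694 to 44336077, a single exon) encodes the histone H2AX, whose phosphorylated form marks unrepaired breaks. Its reads numbered 980 in ND replicate 1, 51 in ND replicate 2, 6 in HFD replicate 1 and 9 in HFD replicate 2. In CPM these were 119 (95% Clopper-Pearson interval 112 to 127) and 6.53 (4.86 to 8.58) in ND, and 0.929 (0.341 to 2.02) and 1.57 (0.719 to 2.99) in HFD. The ND libraries stood at 83.4 and 4.1 times the background limit and the HFD libraries at 0.589 and 0.521 times. On this scale it was the only member whose diets did not overlap. Such separation, in either direction, was found for 27.3% of the 19335 genes tested. With libraries scaled by TMM, the composition factor that the fit uses, 4 members separated, H2afx, Mdc1 and Topbp1 with HFD below ND and Atm with HFD above ND, beside 33.9% of all genes tested. The fit gave a log2 fold change of -5.68 ± 1.65, with an unadjusted p = 0.0133 and an adjusted p = 0.406 in edgeR. H2afx passed the filter on low counts only through its ND libraries. Without ND replicate 1, the library with the red blood cell markers, it was -2.59 (edgeR adjusted p = 0.214), and those markers summed to 1.02 CPM in ND replicate 2. Their part in the H2afx level was not tested. H2AX belongs to the large histone H2A family, and how multi-mapping reads were treated is not given in the sources used here.

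Mdc1 (chromosome 17, 35841515 to 35859670) encodes the scaffold that binds phosphorylated H2AX. Its 74, 69, 20 and 70 counts corresponded to 9.0, 8.83, 3.10 and 12.2 CPM, with HFD replicate 1 low and HFD replicate 2 above both ND libraries. After TMM scaling both HFD values, 4.44 and 8.19, lay below the ND values of 8.84 and 9.37. Both ND libraries sat just above the background limit, at 1.17 and 1.03 times, and both HFD libraries below it, at 0.366 and 0.756 times. Its log2 fold change of -0.53 ± 0.57 (edgeR adjusted p = 0.765) ranged from -0.98 to -0.27 when libraries were left out in turn.

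Topbp1 (chromosome 9, 103305215 to 103350428) encodes the activator of ATR. ND replicate 2 held 25105 of its reads, ND replicate 1 held 97, and HFD replicates 1 and 2 held 36 and 85. In CPM, ND gave 11.8 and 3212 and HFD 5.58 and 14.9, so that ND replicate 2 had 99% of the summed CPM and ND replicate 1 lay between the HFD libraries. After TMM scaling ND replicate 1, at 11.6, was above both HFD libraries, at 8.0 and 9.94. Means were 1612 ± 2263 CPM under ND and 10.2 ± 6.56 under HFD. Its log2 fold change of -7.57 ± 3.26 (edgeR adjusted p = 0.406) became -0.43 without ND replicate 2. ND replicate 1 was at 1.02 times the background limit and the HFD libraries at 0.436 and 0.607 times.

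Brca1 (chromosome 11, 101488764 to 101551955), a repair factor that also brings ATR to unsynapsed axes, had 53, 40, 29 and 32 counts. These were 6.45, 5.12, 4.49 and 5.59 CPM, and lay at 0.3 to 0.731 times the background limit. The diets overlapped, and the log2 fold change was -0.21 ± 0.49 (edgeR adjusted p = 0.919).

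Trp53 (chromosome 11, 69580359 to 69591873), the gene of p53, was counted 21 and 42 times under ND and 13 and 42 times under HFD, or 2.55, 5.37, 2.01 and 7.34 CPM. Only ND replicate 2, at 1.15 times, exceeded the limit. Its log2 fold change was -0.07 ± 0.58 (edgeR adjusted p = 0.981), and 0.24 when libraries were scaled by their totals alone.

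Trp63 (chromosome 16, 25683763 to 25892102), the gene of p63, gave 26 and 36 reads under ND and 15 and 63 under HFD. At 3.16, 4.61, 2.32 and 11 CPM, or 0.243 to 0.601 times the background limit, it was under the limit in every library. The exact 95% intervals of the HFD libraries were 1.30 to 3.83 and 8.46 to 14.1 CPM, so that the HFD replicates differed from each other by more than their counting error. The diets overlapped, with a log2 fold change of 0.42 ± 0.58 (edgeR adjusted p = 0.832).

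**Figure D2:**
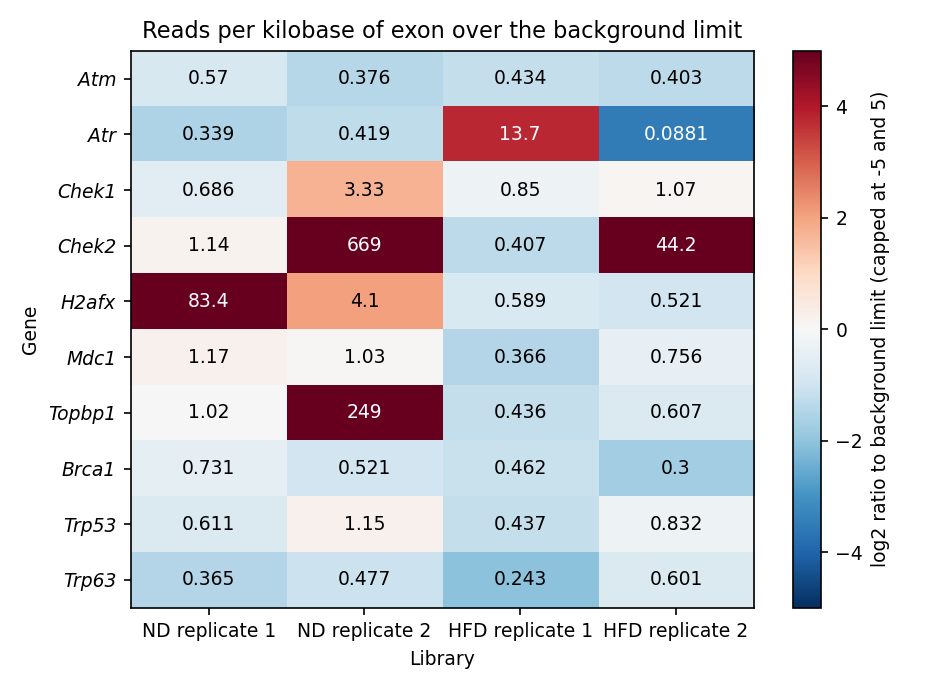
Reads per kilobase of exon of each checkpoint gene divided by the background limit of the same library, printed in each cell, with red above and blue below the limit. Atm, Brca1 and Trp63 are below 1 in every library, and the high cells, such as 669 for Chek2 and 249 for Topbp1 in ND replicate 2, fall in different libraries for different genes.

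In RPKM, that is CPM per kilobase of exon, the order of the levels changed from library to library. H2afx led in ND replicate 1 at 86.1 RPKM, with Mdc1 next at 1.21. In ND replicate 2, Chek2 (770 RPKM) and Topbp1 (286) led, with H2afx (4.72) and Chek1 (3.84) far below them. In HFD replicate 1 Atr led at 15.6 RPKM and the other 9 genes lay between 0.277 and 0.969. In HFD replicate 2 Chek2 led at 96.4 RPKM, followed by Chek1 at 2.34. Ordered by mean RPKM, the ND libraries ran from Chek2 (386 ± 544) through Topbp1, H2afx, Chek1, Mdc1, Trp53, Brca1, Atm and Trp63 to Atr (0.416 ± 0.0933), and the HFD libraries from Chek2 (48.4 ± 67.8) through Atr, Chek1, Trp53, Mdc1, Topbp1, H2afx, Trp63 and Atm to Brca1 (0.591 ± 0.0911). Neighbours in these orders differed by less than the larger of their SDs, except Brca1 (0.678 ± 0.110) and Atm (0.511 ± 0.110) in ND.

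Of the 10 genes, all of which passed the filter on low counts, 0 passed an adjusted p of 0.05 together with a 1.5-fold change between the diets in edgeR, as did 0 of 19335 genes tested (0%). At an unadjusted p under 0.05 there was 1 member, H2afx, or 1 of 10, beside 2174 of all genes tested (11.2%). DESeq2's Wald test, the tool named in the study's methods, gave 7 members an adjusted p and called 3 of them, Topbp1 (log2 fold change -7.68, DESeq2 adjusted p = 9.01e-05) and H2afx (-5.72, adjusted p = 0.000664) lower and Atr (4.64, adjusted p = 0.0148) higher in HFD. Brca1, Trp53 and Trp63 received none. In that test 40.3% of the 6251 genes with an adjusted p were called. limma-voom, edgeR's legacy fit and the other edgeR settings called 0 members. The fitted log2 fold change was above 0 for 3 members and below 0 for 7, with a median of -0.37 over the 10 genes and 0.03 over all genes tested. Without ND replicate 2 the split turned to 6 above and 4 below, with a median of 0.34. Leaving out each library in turn, the sign held for Atm, H2afx, Mdc1 and Topbp1 and changed for the other 6. With 2 libraries against 2, an exact permutation test of a single gene cannot give a p below 0.333.

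**Figure D3:**
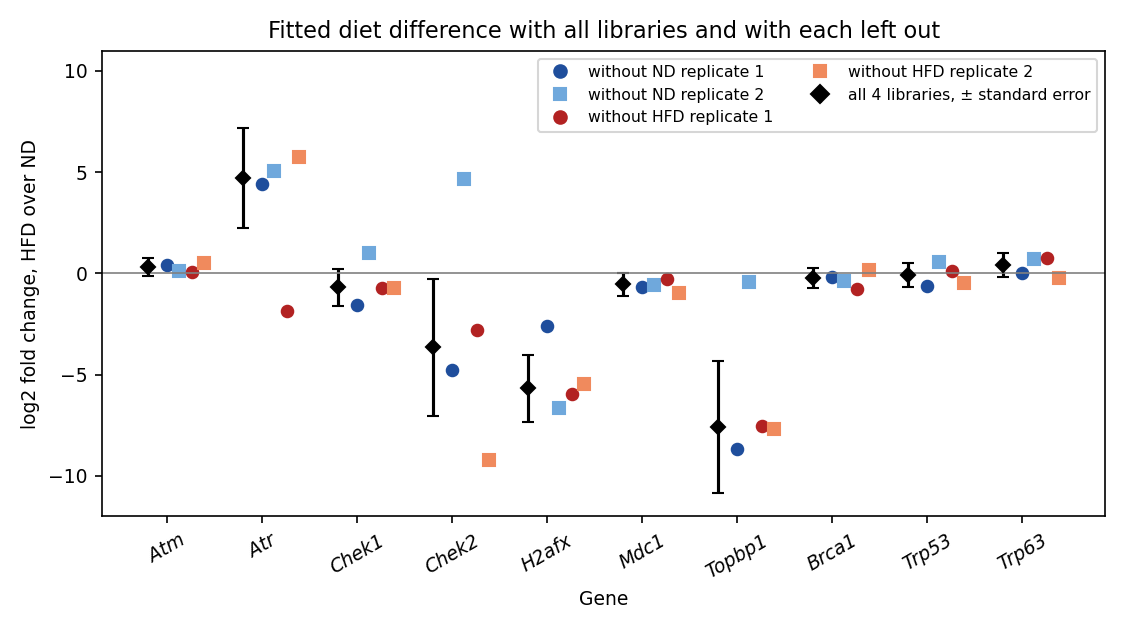
Fitted log2 fold change of HFD over ND for each checkpoint gene with all 4 libraries (black diamonds, bars are the standard error) and with each library left out (coloured symbols). H2afx stays below 0 throughout, from -6.64 to -2.59, while Atr and Chek2 change sign when 1 library is removed and Topbp1 moves from -7.57 to -0.43.

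The high values of the members were mostly carried by a single library. Of the 4 members that reached 50 CPM in any library, 3 (Atr, H2afx and Topbp1) had over 90% of their summed CPM in 1 library, at 93.8%, 93% and 99%, and Chek2 had 88.7%. Among all genes tested, 3446 reached 50 CPM somewhere, and 53.7% of these had over 90% in 1 library. The highest library was ND replicate 1 for H2afx, ND replicate 2 for Chek2 and Topbp1, and HFD replicate 1 for Atr.

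Several members share a start region with another gene. On the opposite strand, a gene began within 1000 bases of the start of 7 of the 10 members, and for 5 of them (Atm, Brca1, Chek2, Topbp1 and Trp53) that gene is coding. Chek2 and Hscb, an iron-sulfur cluster chaperone, start 202 bases apart, inside the promoter window printed above. Yet Hscb had 12, 16, 5 and 9 counts where Chek2 had 29, 18063, 9 and 1656. Topbp1 and 1300017J02Rik start 133 bases apart, and the latter, a gene under the background limit that was added after its values were seen, had 34, 9, 17 and 13 counts, lowest where Topbp1 was highest. Npat, a regulator of histone gene transcription, starts 307 bases from Atm. It had 1856 counts in ND replicate 1, or 35 times the background limit, and 45, 4 and 10 in the other libraries, whereas Atm was at background in all 4. Nbr1, an autophagy receptor that starts 194 bases from Brca1, was at 49, 60, 410 and 54 counts in the same library order, with Brca1 at 29 counts in the library where Nbr1 was at 410. Wrap53, which starts 104 bases from Trp53, had 19, 18, 5 and 33 counts. The high counts of 1 gene of a pair did not appear in its neighbour. None of these coding neighbours overlaps its member. Also added after their values were seen, the antisense genes that overlap Atr, 1700065D16Rik and Gm16794, held at most 10 counts each. Gm48853, which starts 308 bases from H2afx on the other strand, held at most 4. Whether counting used strand is not given in the sources used here.

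**Figure D4:**
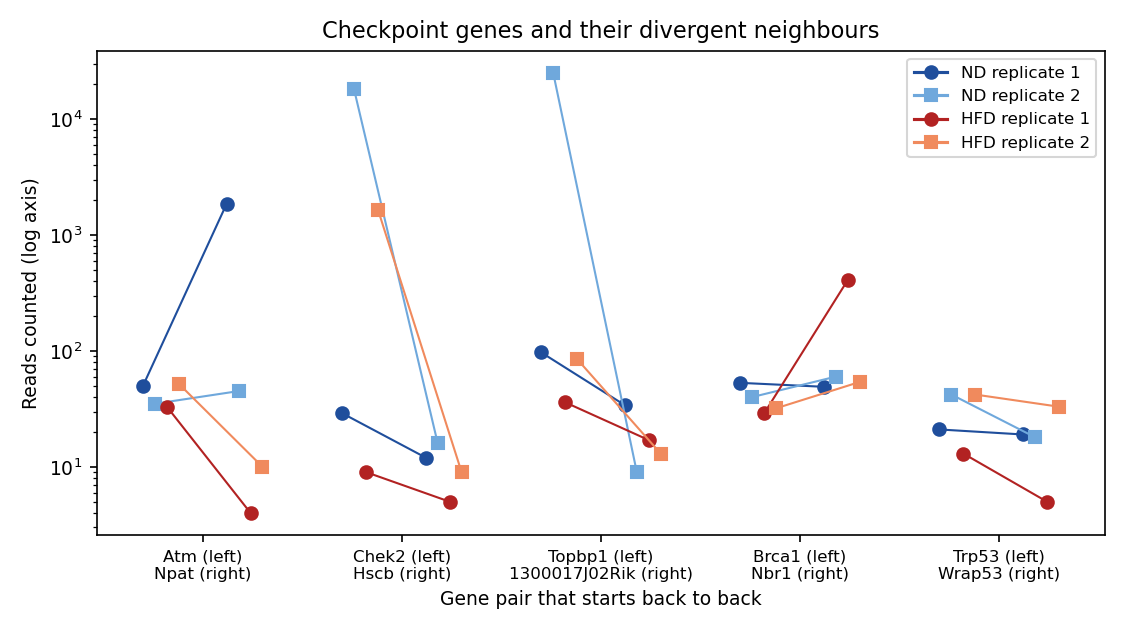
Reads counted (log axis) on 5 checkpoint genes (left of each pair) and on the coding gene that starts back to back with it (right), with a line joining the values of 1 library. The steep lines show that Chek2, Topbp1, Npat and Nbr1 were each high in libraries where the partner stayed below 100 counts.

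The wider DNA damage response was followed in 61 further genes, chosen by their known roles. Of these, 57 passed the filter on low counts, and 0 were called by edgeR. Of the 57, 5 had an unadjusted p under 0.05 in edgeR, all of them lower in HFD, beside 11.2% of all genes tested in either direction. That share was not split by direction, so the direction of the 5 has no measure beside it. Among these 5, Abraxas1, Hormad2, Ppm1d and Tipin passed the filter on low counts only through their ND libraries, as H2afx did. Their lower HFD values are therefore not independent of the filter. DESeq2 called 7 higher and 6 lower, or 13 of the 32 with an adjusted p, beside 40.3% of all genes with one. In the ND libraries 20 and 27 of the 61 genes exceeded the background limit, and in the HFD libraries 17 and 11. Among all coding genes tested the shares were 31.6% and 28.7% in ND and 17.5% and 19.1% in HFD, so that they too were lower in HFD. Only Ccnb1 did so in all 4 libraries, and 16 genes in none. The median log2 fold change was -0.28, with 27 genes above 0 and 30 below.

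Among the 15 damage sensors and partners of ATM and ATR, 14 were tested, with 4 above 0 and 10 below. Tipin and Timeless, which encode partners in a fork protection complex that aids ATR signalling, were both highest in ND replicate 2. Tipin had 38, 7529, 12 and 8 counts, and its log2 fold change of -8.15 (unadjusted p = 0.038, adjusted p = 0.406 in edgeR) became -1.35 without that library. Timeless had 72, 2912, 19 and 79 counts and a log2 fold change of -4.90, which became -0.44 without that library. ND replicate 2 was also the library in which Topbp1 and Chek2 were highest.

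Of the 14 mediators and ubiquitin ligases, 9 were above 0 and 5 below. Abraxas1, a scaffold of the BRCA1-A complex, had 23, 28, 4 and 10 counts, at 0.18 to 1.03 times the background limit. With a log2 fold change of -1.65 ± 0.42, it had an adjusted p = 0.406 in edgeR and an unadjusted p = 0.00671, the smallest unadjusted p of the list. Like H2afx, it passed the filter on low counts only through its ND libraries.

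Among 16 regulators and targets of the p53 family, 14 were tested, with 9 above 0 and 5 below. Ppm1d, a phosphatase that turns off ATM and p53 signalling, had 30, 23, 8 and 13 counts, with a log2 fold change of -1.02 (unadjusted p = 0.0261, adjusted p = 0.406 in edgeR) and only ND replicate 1 above the limit. Mdm4, an inhibitor of p53, had 131, 251, 392 and 175 counts and exceeded the limit in 3 libraries, as did Csnk1e, a casein kinase 1 gene, with 48, 100, 111 and 105. Their log2 fold changes were 1.11 and 0.93, with edgeR adjusted p = 0.760 and 0.685. Without HFD replicate 1, Mdm4 was at -0.40.

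Of the 10 cell cycle effectors, 4 were above 0 and 6 below. Ccnb1, which encodes cyclin B1, had 3155, 176, 327 and 61 counts, for a log2 fold change of -2.33 ± 2.01 (edgeR adjusted p = 0.682). Plk1, a mitotic kinase, had 7377, 33, 1871 and 24 counts, high in both replicates 1. Wee1, the inhibitory kinase of CDK1, had 48, 68, 3739 and 4 counts, so that without HFD replicate 1 its log2 fold change went from 5.79 to -4.07. Cdc25b, the opposing phosphatase, had 32, 23, 33 and 53 counts, with both HFD values in CPM above both ND values. Its log2 fold change was 0.96 ± 0.41 (edgeR adjusted p = 0.406). Such separation in CPM, in either direction, was found for 27.3% of all genes tested. In the list it was also seen for Csnk1e and Csnk1d with HFD above ND. With HFD below ND it was seen for Abraxas1, Ppm1d, Ankrd31 and Tipin. Further list genes separated in either direction, and they were not counted.

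Among 6 meiotic prophase partners, 5 were tested, with 1 above 0 and 4 below. Hormad2, which recruits ATR to unsynapsed axes, had 6759, 18, 6 and 22 counts, and its log2 fold change of -7.68 (unadjusted p = 0.0431, adjusted p = 0.406 in edgeR) became -0.41 without ND replicate 1. Ankrd31, which takes part in break formation, had 47, 71, 14 and 22 counts, and its log2 fold change of -1.42 ± 0.49 (unadjusted p = 0.0265, adjusted p = 0.406 in edgeR) ranged from -1.83 to -1.03 when libraries were left out in turn, with only ND replicate 2 above the background limit. Mael, a germ cell factor of transposon silencing, had 15, 48, 1520 and 18 counts, with a log2 fold change of 5.35 that became -1.10 without HFD replicate 1.

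**Figure D5:**
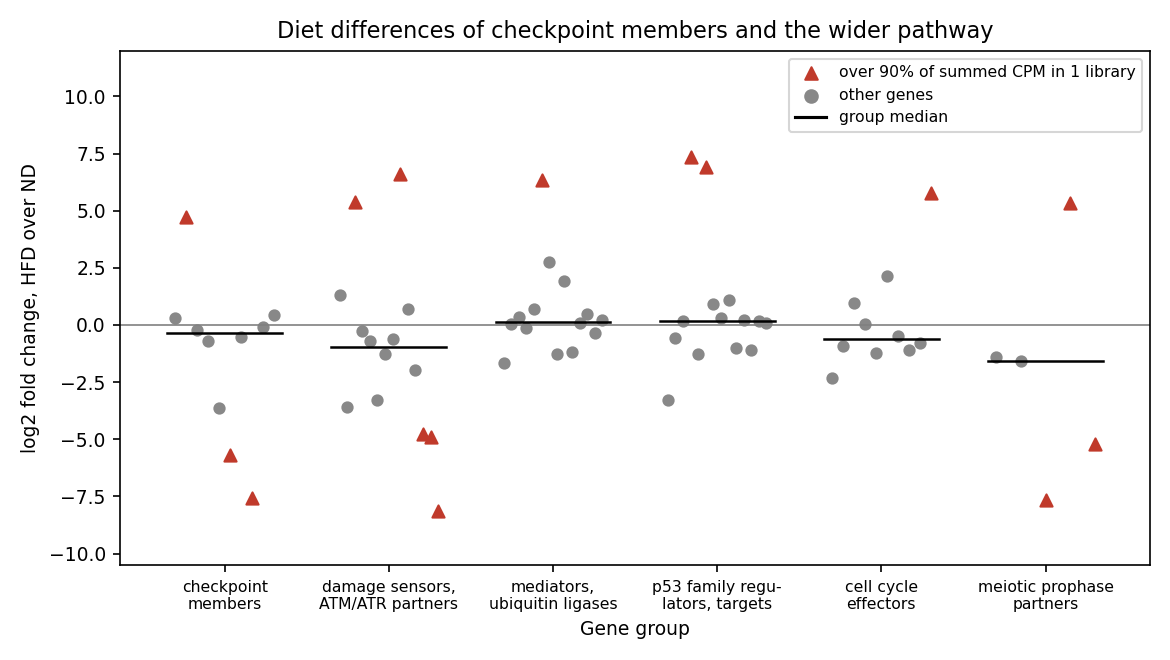
Fitted log2 fold change of HFD over ND for the 10 checkpoint members and the tested genes of 5 groups of the wider DNA damage response, 1 point a gene, with group medians as lines. Red triangles mark genes with over 90% of their summed CPM in 1 library, and they range from -8.15 for Tipin to 7.37 for Cdkn1a.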

How the data were processed

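RNA of fetal oocytes was measured in 4 libraries, 2 per diet. The authors checked reads with FastQC, ran Trim Galore, used HISAT2 with mm10 for alignment, and obtained gene counts from featureCounts. The deposited values are raw counts, used without change, and the annotation release is not given in the sources used here. Of 55401 identifiers, 55141 were found, ignoring version numbers, in GENCODE M21 (GRCm38, the same assembly as mm10). Exon length is the union of all annotated exons.

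CPM is the count per 1000000 counts of the library total. The diets were compared in R 4.3.3 with edgeR 4.0.16 (glmQLFit, legacy FALSE, then glmQLFTest), TMM normalization, filterByExpr and Benjamini-Hochberg adjustment over 19335 genes, with no covariate. Standard errors are absolute log2 fold changes divided by the root of the F statistic. limma 3.58.1 (voom) and DESeq2 1.42.0 were alternatives, beside other normalizations and filters, a replicate block and leaving out each library. The edgeR fit was also run on simulated counts, with a smaller spread between replicates than Chek2 or Topbp1 had here. That run does not show how the fit performs at the spread of these libraries. The members and lists were chosen with earlier results of these data known. Named are all 10 members, the genes of the wider list above background in at least 3 libraries or with an unadjusted p under 0.05, the overlapping or neighbouring genes above background in any library, and the 2 most abundant markers of a cell type. A planned count of protein motifs was not run. Neither the bisulfite data nor the imaging were analysed here.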

Additional observations from a re-analysis of the deposited data

How the results depend on the processing

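Neither the normalization nor the filter brought a checkpoint gene past the threshold, but the tool did. With DESeq2 on all genes, 2518 genes were called (1350 higher and 1168 lower in HFD), among them 3 checkpoint members and 13 genes of the wider list, where edgeR called 0 of each. The legacy edgeR fit called 34 genes, none of them a member or a gene of the wider list. With the replicate number as a block, 0 members, 0 genes of the wider list and 0 genes in all were called. Across 19335 genes, the differences between replicates 1 and 2 in ND and in HFD were nearly uncorrelated (Pearson's r = 0.011). This single correlation cannot show whether libraries with the same number shared a litter or a batch, because genes high in only 1 library were common. Of 118 log2 fold changes of members under an alternative, 107 kept direction and side of the threshold, 3 newly passed it (DESeq2) and 8 changed sign. Without the composition factor, Trp53 changed to 0.24, with a median over all genes of 0.209 in place of 0.035. The other 7 came from leaving out a library, which leaves 1 library in a diet, assumed to vary like the others. Then the log2 fold change ranged from -1.85 to 5.75 for Atr, -1.54 to 1.02 for Chek1, -9.20 to 4.67 for Chek2, -0.77 to 0.18 for Brca1, -0.63 to 0.56 for Trp53 and -0.21 to 0.76 for Trp63. Calls of members, of the wider list and of all genes stayed at 0 in each of these fits. At a minimum of 10 counts in every library, Chek2 and H2afx were not tested.

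At the 95th percentile of reads per kilobase, members above background numbered 4 and 6 in ND replicates 1 and 2, unchanged, and 2 and 4 in HFD replicates 1 and 2. With raw counts and no exon length, which favours long genes, they numbered 9 and 10 under ND and 6 and 8 under HFD. The share of all coding genes was not computed for either limit. On TMM-normalized CPM, the share in the highest library was 95.8% for Atr, 92.5% for Chek2, 30.4% for Mdc1, 99.1% for Topbp1 and 39.4% for Trp63. On that scale, an alternative chosen after seeing the data, 4 members did not overlap between the diets, in place of 1.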

Other observations

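Across the checkpoint members and the wider list, 15 of 71 genes reached 50 CPM in a library that held over 90% of their summed CPM. These genes, named here because of this pattern and so after their values were seen, fell into 3 of the 4 libraries. In ND replicate 1 they were H2afx, Hormad2, Rhno1 and Trip13, of which Rhno1, a partner of the checkpoint clamp, had 12881 counts there and 9, 17 and 454 in the others. In ND replicate 2 they were Timeless, Tipin and Topbp1. In HFD replicate 1 they were Atr, Cdkn1a, Csnk1d, Etaa1, Mael, Mcph1, Rad50 and Wee1. Cdkn1a, the cell cycle inhibitor p21 that p53 induces, had 5041 counts in that library against 27, 26 and 16, and Rad50, a subunit of the break sensor complex, had 3965 against 18, 51 and 18. Etaa1, which like TOPBP1 activates ATR, was high in the same library as Atr, with 1861 counts against 30, 47 and 6. Other genes linked to ATR were highest elsewhere, with Topbp1, Tipin and Timeless in ND replicate 2 and Rhno1 in ND replicate 1. HFD replicate 2 had none of the 71 genes in this pattern. Among all genes tested, 1849 showed it, with 30.5% in ND replicate 1, 14.2% in ND replicate 2, 37.1% in HFD replicate 1 and 18.2% in HFD replicate 2.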
